A study of Mus musculus with 2 samples.

Results

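Across the 19 mouse autosomes, 688 stretches of 500 kb or more held no called Tdg peak in E14 embryonic stem cells. They were chosen by distance alone, as every gap of at least that length in the peak list of the Bio-Tdg library between the end of one peak and the start of the next on chromosomes 1 to 19. Number, length and spacing of the stretches are therefore descriptions, with no test. They made up 688 of the 72208 distances between neighbouring autosomal peaks (0.953%), and together they spanned 741 Mb. This was 30.8% of the 2408 Mb that lie between the first and the last peak of the autosomes.

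The series held 2 ChIP-seq samples, both of E14, a widely used mouse embryonic stem cell line. In one, the cells were labelled Bio-Tdg, a biotin-tagged form of Tdg (n = 1). In the other, they were BirA cells used as a mock (n = 1). BirA is the bacterial ligase that adds biotin to the tag, and biotin allows tagged protein and bound DNA to be captured on streptavidin. No file of the mock was analysed here, so a stretch is a place without a called peak in 1 library, no value has a replicate error, and no test between samples was made. Neither label names a treatment, a time or a clone.

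Tdg is thymine DNA glycosylase. It removes 5-formylcytosine and 5-carboxylcytosine, the bases that Tet enzymes make by further oxidation of methylated cytosine, and base excision repair then puts back an unmodified cytosine. The removal is known best at gene promoters and enhancers, and in embryonic stem cells these bases build up there when Tdg is absent. Mammalian genomes also hold long gene-poor regions, often called gene deserts, with few promoters. The genes in or near the stretches below are not given, because no annotation of mm9, the build of the positions, was used here. Assembly gaps and repeated sequence, where reads cannot be placed, were not measured either, and their part in any stretch was not tested.

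The stretches were the long end of an unbroken range of distances. Their median length was 827 kb, with quartiles of 623 and 1285 kb, against a median of 6083 bp over all distances between autosomal peaks. There were 297 stretches of 500 to 750 kb and 129 of 750 kb to 1 Mb. The other 262 were 1 Mb or longer. These were 38.1% of the stretches, but they held 60.6% of the length. Another count put 66 stretches at 2 Mb or more, with 24.3% of the length, and 13 at 3 Mb or more.

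**Figure D1:**
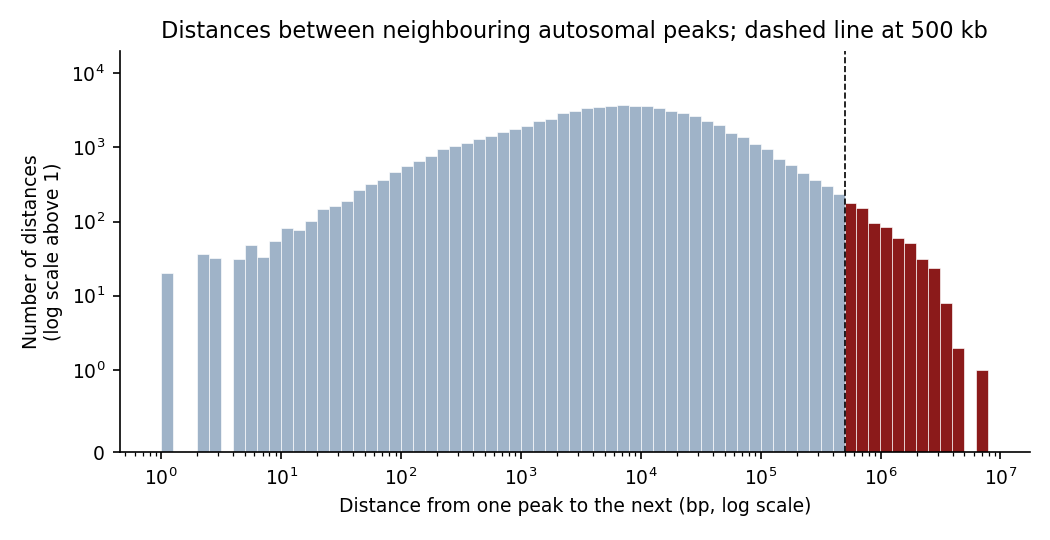
Number of distances between neighbouring autosomal peaks (y axis, log scale above 1) by length in bp (x axis, log scale), with the 688 distances of 500 kb or more in dark red and the limit as a dashed line. The counts decline without a break across the limit.

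The limit of 500 kb falls in the middle of this decline. The shortest stretches that it includes were 501, 503.0 and 503.1 kb long, on chromosomes 14, 10 and 7. The longest distances that it leaves out were 499.8, 499.5 and 499.3 kb, on chromosomes 4, 8 and 12. Within 10 kb of the limit lay 17 distances above it and 14 below it. The peaks at the ends of the 3 shortest stretches had scores from 277 to 873. Of the 3 distances just under the limit, the one on chromosome 4 had 326 and 637 and the one on chromosome 12 had 275 and 764, in a similar range, and the one on chromosome 8 had 2364 and 3100. The score is the authors' own value per peak, which the MACS 1.4 peak caller writes as the negative log10 of the p-value, multiplied by 10.

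The longest stretch lay on chromosome 7, 39057428 to 46529253, and measured 7.47 Mb. The next was chromosome 1, 25888228 to 30861462, with 4.97 Mb. Chromosome 7 also held the third, 20577282 to 24866344, with 4.29 Mb, and the fourth, 7252872 to 11080211, with 3.83 Mb. Chromosome 7 therefore held 3 of the 4 longest stretches, all of them in its lower-coordinate part. Mouse chromosomes have their centromere at the low-coordinate end.

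Next came chromosome 5, 59333275 to 63156550, with 3.82 Mb. A further stretch of chromosome 5, 77917853 to 81448464, measured 3.53 Mb. Chromosome 12 held 93088081 to 96675278 and 21574951 to 25155741, which were 3.59 and 3.58 Mb long. The last of the 10 were chromosome 14, 41941707 to 45453058, with 3.51 Mb, and chromosome 6, 73709714 to 77192543, with 3.48 Mb. The 10 together measured 42.1 Mb, or 5.68% of the length of all 688.

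The peaks at the ends of these 10 longest stretches were of very different strength. The 7.47 Mb stretch on chromosome 7 lay between a peak of 1884 bp with a score of 1907 and a peak of 1542 bp with a score of 1652. Both were well above the autosomal median score of 555. The 3.83 Mb stretch on the same chromosome began after a peak of 2318 bp with a score of 3038 and ended at one of 1097 bp with a score of 769. The 3.58 Mb stretch on chromosome 12 lay between 2 weak peaks, of 548 bp with a score of 275 and of 707 bp with a score of 326. The ends of the stretches on chromosomes 14 and 6 were weak as well, with scores of 320 and 386 on chromosome 14 and of 341 and 305 on chromosome 6. Of the other 5, 3 had both ends above the autosomal median and 2 had one end on each side of it. Scores were 1699 and 696 at the ends of the stretch on chromosome 1, and 563 and 2267 at those of the 4.29 Mb stretch on chromosome 7. The 3.59 Mb stretch on chromosome 12 had 1538 and 692. On chromosome 5 they were 372 and 1570 for the longer stretch and 274 and 634 for the shorter one.

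Every autosome had stretches, from 11 on chromosome 19 to 62 on chromosome 1. Numbers went with the length of the chromosome (Spearman's rho 0.818 over 19 autosomes, as a description). The share of the chromosome in stretches is therefore the better measure for comparing them. It averaged 30.2% ± 7.23 (SD over 19 autosomes), with a median of 32.4%.

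Chromosome 14 had the highest share, 43.3% in 45 stretches. It was followed by chromosomes 7 with 38.1%, 3 with 37.0%, 12 with 36.3% and 16 with 35.9%. Chromosomes 1, 6, 4, 15 and 8 had 34.8%, 34.2%, 34.0%, 33.95% and 32.4%. These 9 chromosomes lay between 38.1% and 32.4%, with steps of similar size above them to chromosome 14 and below them to the rest. Chromosomes 5, 17, 2, 10 and 18 had 28.1%, 27.6%, 27.1%, 26.7% and 26.3%. At the low end were chromosomes 13 with 21.7%, 9 with 21.02%, 19 with 20.6% and 11 with 15.2%, the last with 19 stretches.

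**Figure D2:**
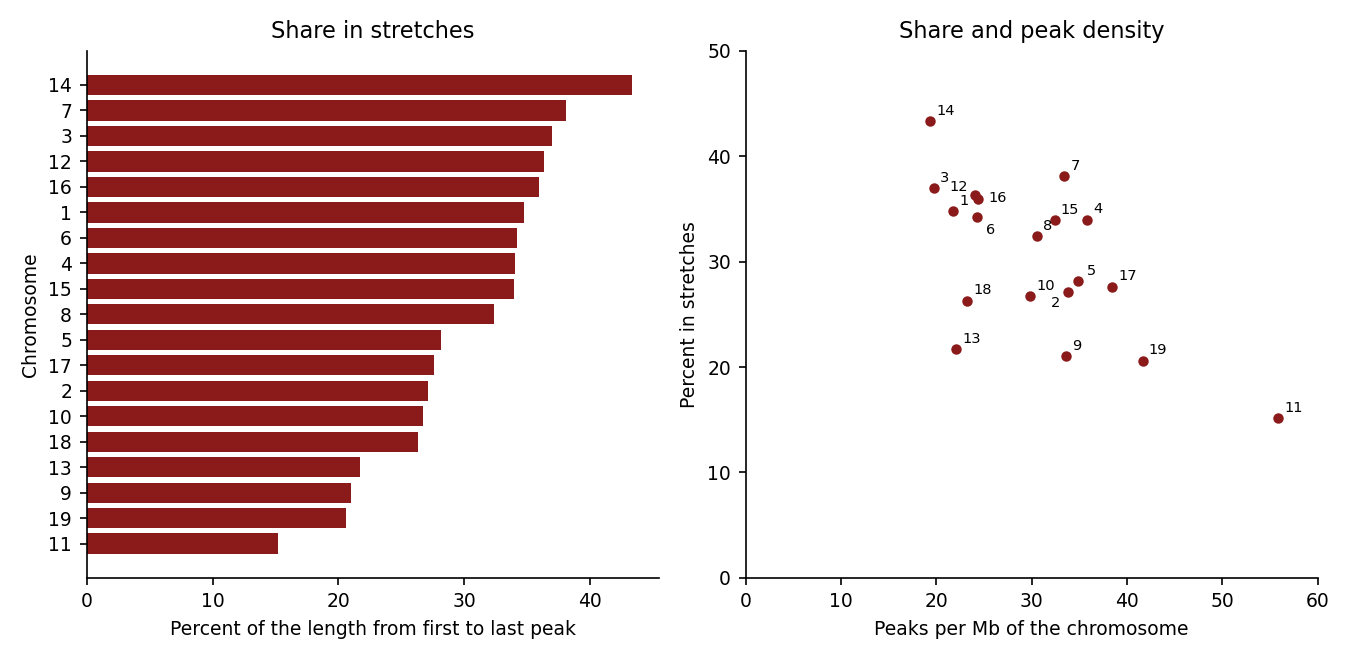
Left, percent of the length between first and last peak that lay in stretches of 500 kb or more, by autosome (bars from 0). Right, the same percent against peaks per Mb of the whole chromosome, 1 point per autosome; chromosome 14 is at 43.3% and 19.4 peaks per Mb, chromosome 11 at 15.2% and 55.8 peaks per Mb.

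A chromosome with few peaks did not always have a high share in stretches. Over the 19 autosomes, Spearman's rho between the share and the peaks per Mb was −0.546, a value in part built in, since both come from the same peaks. Chromosome 13 had 22.1 peaks per Mb, the fourth lowest density, but only 21.7% of it lay in stretches. Chromosome 7 had 33.4 peaks per Mb and a share of 38.1%. The size of this contrast in share depended on the settings. At a minimum length of 250 kb, chromosome 13 had 39.1% and chromosome 7 had 47.9%, and at 1 Mb they had 7.76% and 28.3%. Dropping peaks that scored under 500 gave 35.1% and 47.0%. Dropping those under 1000 gave 50.6% and 54.1%, which were close. Chromosome 13 stayed the lower of the pair in each of these settings. The median distance between peaks was 11600 bp on chromosome 13, the highest of the autosomes, against 4823 bp on chromosome 7. How evenly the peaks were spaced was not measured. Chromosome 9, with 33.6 peaks per Mb, was as dense as chromosome 7 and had 21.02% in stretches.

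Leaving out the stretches brought the chromosomes closer together in density but did not make them equal. Outside stretches the autosomes held 43.3 peaks per Mb, against 30.0 per Mb over the whole length. By chromosome the outside value ran from 28.2 on chromosome 13 to 65.8 on chromosome 11, a ratio of 2.33, against a ratio of 2.88 between the highest and lowest chromosome over the whole length. The coefficient of variation over the 19 autosomes was 23.0% outside stretches and 29.6% over the whole length. Without chromosome 11, the values were 20.5% and 23.4%. Leaving out length without peaks raises density most, in proportion, where the share in stretches is highest. That share tended to be higher on chromosomes with fewer peaks per Mb, so the narrowing is in part built in.

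Chromosome X, outside the rule, gave 76 stretches under the same minimum length. They spanned 116 Mb, or 72.1% of the length between its first and last peak, and 10.6% of its 714 distances were that long. The median stretch was 827 kb on the autosomes and 870 kb on X, and the longest was 7.47 Mb on the autosomes and 10.2 Mb on X. Outside stretches, chromosome 13, the lowest autosome, held 28.2 peaks per Mb and X held 15.95. E14 cells carry X once, so a difference in copy number and a difference in binding cannot be told apart here.

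The longest stretch of a chromosome was taken next. Chromosomes 7 and 1 stood out with the 7.47 and 4.97 Mb described above, and the other 17 ran from 1.57 to 3.82 Mb. On chromosome 14 it was 3.51 Mb. Those of chromosomes 15 and 16 were 3.12 Mb, at 45505569 to 48621036, and 3.02 Mb, at 52453914 to 55469111. Chromosomes 3, 10 and 2 each came close to 3 Mb, with 2.96 Mb at 75878754 to 78843609, 2.96 Mb at 46540157 to 49502133 and 2.96 Mb at 98507833 to 101468327. Even chromosome 11, with the lowest share, held one of 2.81 Mb, at 37051094 to 39863866.

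The remaining chromosomes had shorter maxima. Chromosome 4 had 2.73 Mb at 29019602 to 31747901, and chromosome 8 had 2.59 Mb at 52002536 to 54596813. On chromosome 13 the longest was 2.44 Mb, at 86519397 to 88960270, and on chromosome 17 it was 2.32 Mb, at 60275773 to 62595965. Chromosome 19 reached 2.24 Mb at 50753776 to 52997326, and chromosome 18 reached 2.18 Mb at 86883024 to 89062711. Chromosome 9 had the shortest maximum, 1.57 Mb at 11378306 to 12946080, and only 6 of its 30 stretches were 1 Mb or longer.

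Along the chromosomes the stretches were spread over the whole length and thinned out towards the far end. Each chromosome was cut into 10 equal sections, numbered from the centromere, and the sections were summed over the 19 autosomes. In section 1, 30.6% of the length lay in stretches. Sections 3, 5 and 6 were highest, with 37.1%, 36.9% and 36.9%, and sections 9 and 10 were lowest, with 22.3% and 18.7%. Peaks were densest in section 10, with 46.0 per Mb, and sparsest in section 1, with 20.1 per Mb. Section 1 was thus low in peaks without being highest in stretches.

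Single chromosomes departed from this in both directions. The near part of chromosome 7 was 54.7% stretches and its far part 21.4%. Each part is one of 2 equal sections of the length from first to last peak. Chromosomes 15, 8 and 4 were alike in direction, with 48.3% near and 19.6% far on 15, 46.5% and 18.3% on 8, and 47.6% and 20.4% on 4. Chromosome 16 was the reverse, with 14.2% near and 57.6% far. Chromosome 14 had 31.4% near and 55.2% far, and chromosome 17 had 19.3% near and 36.0% far. On chromosome 11 only 5.56% of the far part lay in stretches, against 24.8% of the near part. In all, the near part had the higher share on 11 autosomes and the far part on 8.

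**Figure D3:**
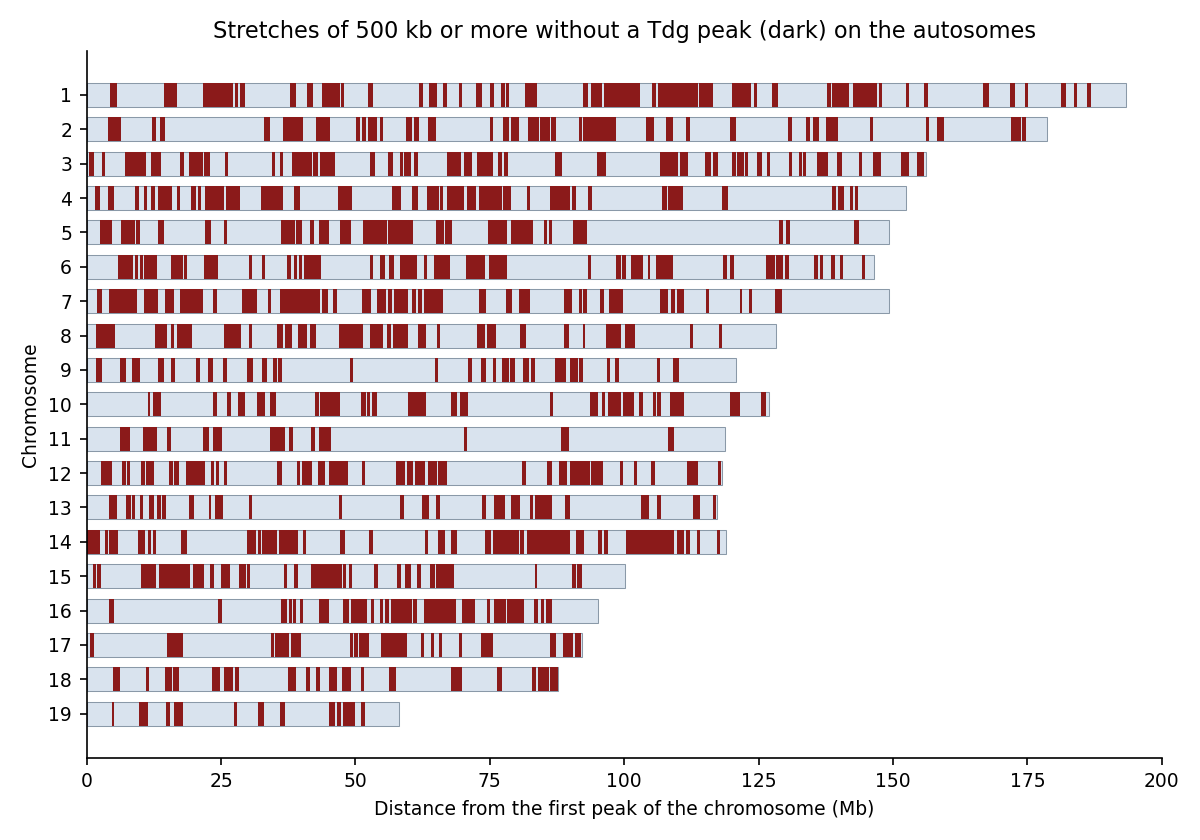
The 19 autosomes, each drawn from its first to its last peak (x axis, distance from the first peak in Mb), with the 688 stretches in dark red. Stretches parted by 1 peak merge at this scale, as on chromosome 14, where 43.3% of the length is dark, and long light sections are free of stretches, as on chromosome 5.

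The sections between stretches were of very unequal size. Between successive stretches of a chromosome there were 669 sections, with a median of 12 peaks (quartiles 2 and 75) and a median span of 767 kb (quartiles 62.3 and 2782 kb). Of these, 379 (56.7%) held 20 peaks or fewer, and together they had only 2.53% of the autosomal peaks. At the other end, 145 sections of more than 100 peaks held 54428 peaks, 75.4% of the autosomal total, in 44.5% of the length. In these large sections the density was 50.8 peaks per Mb. Sections of 21 to 100 peaks had 22.6 per Mb, those of 6 to 20 peaks 14.4 per Mb and those of 2 to 5 peaks 13.6 per Mb. These densities are in part a matter of construction, since a section is classed by its number of peaks.

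The longest section free of stretches was on chromosome 5, 96379201 to 132092965, where 35.7 Mb held 2181 peaks. Chromosome 11 followed with 24.7 Mb and 1420 peaks between 48402311 and 73143654. On chromosome 7, which had the second highest share in stretches, the 19.98 Mb from 132536035 to its last peak at 152512437 had none, and held 1015 peaks. On chromosome 14, with the highest share, the longest such section was 11.2 Mb, from 24721767 to 35967682, with 430 peaks. All 19 autosomes had a section of at least 9.63 Mb without a stretch.

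Stretches lay next to each other more often than their number among all distances. Of the 688, 116 (16.9%) were followed directly by another, so that a single peak parted them, whereas 0.953% of all distances between autosomal peaks were stretches. Chromosome 1 had 17 such lone peaks for its 62 stretches, and chromosomes 2 and 14 had 10 each for 47 and 45 stretches. Chromosome 11 had 6 for 19 stretches, the most in relation to its number of stretches. Chromosomes 9 and 19 had none, with 30 and 11 stretches. In 267 of the 669 sections (39.9%) there were 5 peaks or fewer between one stretch and the next. No chance model was fitted, and the spacing of peaks was the measure that chose the stretches, so these shares are a description.

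Joining stretches across peaks that span at most 100 kb gave 513 blocks. Of these, 393 were single stretches and 120 were runs of 2 or more, which took in 295 stretches (42.9%) and 45.2% of the stretch length. There were 84 runs of 2 stretches, 26 of 3 and 10 of 4 or more, and the median run measured 2.47 Mb. Only 267 peaks lay inside the 120 runs, which spanned 336 Mb. Chromosome 8 had the most runs, 12, and chromosome 19 had none.

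The longest run was chromosome 14, 106488321 to 115351206. It measured 8.86 Mb and held 3 stretches and 3 peaks, which covered 8.30 kb in all. A second run on the same chromosome, 87968398 to 96060130, measured 8.09 Mb and was cut into 7 stretches by 7 peaks. Chromosome 1 had a similar run of 7 stretches and 7 peaks over 7.40 Mb, at 109943247 to 117343126, and another of 6 stretches and 5 peaks over 6.67 Mb, at 99992934 to 106665051. Chromosome 2, 94605204 to 101468327, had 4 stretches and 7 peaks over 6.86 Mb. In these 5 runs at least 99.03% of the length was free of peaks. When joined in this way, 2 runs on chromosome 14 were longer than the longest stretch of the list on chromosome 7.

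Peaks were also sparse next to the stretches. Going outward from a flanking peak, the next peak lay a median of 101.3 kb away (quartiles 19.1 and 314 kb), against a median of 6.08 kb over all distances between autosomal peaks. One edge, at the first peak of chromosome 14, has no peak outside it. At 689 of the other 1375 edges (50.1%) the next peak was 100 kb or more away, whereas 5.87% of all distances were that long. The 689 include the edges at the 116 lone peaks, where the next distance is itself a stretch, so they in part repeat the count of adjoining stretches. The first 100 kb outside a flanking peak held 13.5 peaks per Mb and the bin from 900 to 1000 kb held 20.3, so that 1 Mb away the density was still below the 30.0 per Mb of the autosomes as a whole. Stretches of 2 Mb or more were flanked by 18.5 peaks per Mb over the first 1 Mb, those of 1 to 2 Mb by 15.4 and those of 500 kb to 1 Mb by 17.3. Length and surrounding density thus showed no steady order. Around stretches of 2 Mb or more the density did not climb steadily either, with 15.7 peaks per Mb in the first bin, 21.1 in the bin from 500 to 600 kb and 18.1 in the bin from 900 to 1000 kb.

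**Figure D4:**
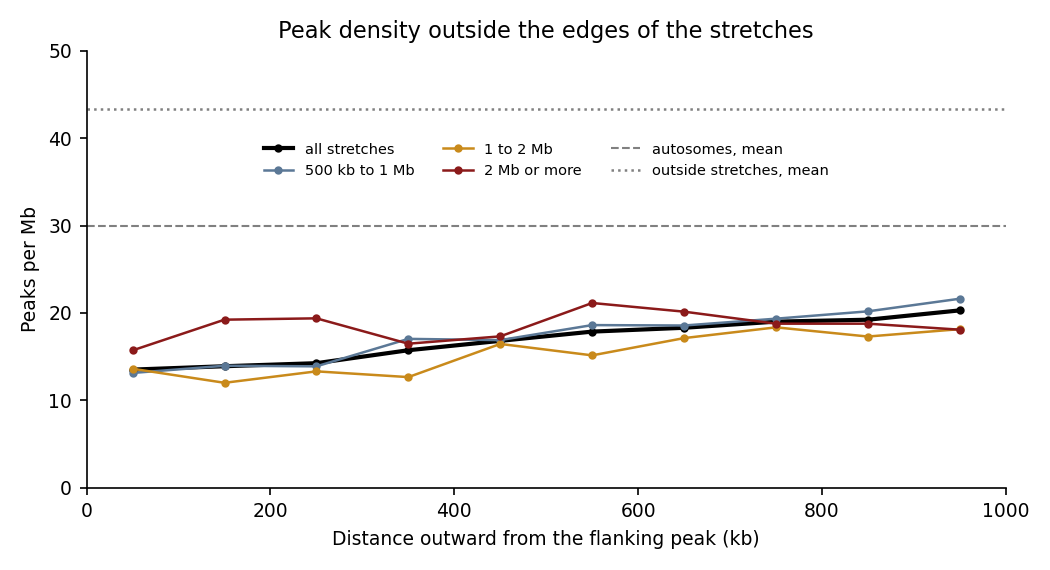
Peaks per Mb (y axis) in bins of 100 kb going outward from the flanking peak (x axis, kb), for all stretches and by stretch length, with the mean of the autosomes (dashed, 30.0) and of the autosomes outside stretches (dotted, 43.3). All 4 curves stay below both means out to 1 Mb. The bins can run through neighbouring stretches, whose length the dotted mean leaves out.

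The 688 stretches had 1260 different flanking peaks, 116 of which flanked one on each side. The flanking peaks were weaker and narrower than the other 70967 autosomal peaks, with wide overlap. Their median score was 460 (quartiles 315 and 961), against 557 (337 and 1130) for the other peaks. The median width was 772 bp (579 and 1146) for flanking peaks and 854 bp (615 and 1316) for the others. The 95% binomial interval of the median score was 430 to 491 for flanking peaks and 552 to 561 for the others. These intervals treat peaks as independent, and they hold for peaks within this library only.

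Flanking peaks were found over the whole range of scores. A score below 337, the lower quartile of the other peaks, was found for 397 of them (31.5%), against 24.99% of the others by definition. A score above 1130, the upper quartile, was found for 260 (20.6%). At the top of the scale, where the p-value nears the limit of double-precision numbers and reads cannot be recovered, were 15 flanking peaks (1.19%) and 2060 others (2.90%). The widest flanking peak measured 6101 bp, whereas the widest of the others measured 40889 bp.

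Scores follow from reads and width in this list, so the numbers of reads were read back where possible (1245 of the 1260 flanking peaks). The median was 36 reads (25 and 68) in flanking peaks and 42 reads (26 and 78) in the others. The median density was 47.9 reads per kb in flanking peaks and 49.5 in the others. Since the reads were computed from score and width, these values restate the lower scores and are no separate measurement.

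The direction was the same on most chromosomes. The median score of flanking peaks was lower than that of the other peaks on 17 of 19 autosomes, and the median width on 18. Chromosome 9 had the widest difference in score, with a median of 384 for its 60 flanking peaks and 558 for its other peaks. Chromosome 14 had 386 for 80 flanking peaks and 529 for the others. On chromosome 5 flanking peaks were higher, at 556 against 533, and on chromosome 10 they were nearly level, at 554 against 550.

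Flanking peaks at the low-coordinate end of a stretch had a median score of 473 and those at the high-coordinate end 450. The intervals were 419 to 534 and 419 to 487. The 116 peaks with a stretch on each side count in both groups, so these intervals are not independent and were not used as a test. Scores at the ends of one stretch were barely related (Spearman's rho 0.0495 over 688 stretches, as a description). Both ends lay below the autosomal median score of 555 in 231 stretches (33.6%), and both lay above it in 125 (18.2%). The other 332 (48.3%) had one end on each side. With ends so little related, this split mostly restates the lower median score of flanking peaks. It was not counted for all pairs of neighbouring autosomal peaks. The mean score of the ends was barely related to the length of the stretch (rho −0.0703).

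Flanking a stretch was one end of a gentle slope with distance. Peaks at the ends of distances under 5 kb had a median score of 576. The median was 545 at 5 to 20 kb, 516 at 20 to 50 kb, 507 at 50 to 100 kb, 495 at 100 to 200 kb and 492 at 200 to 500 kb. For stretches it was 485 at 500 kb to 1 Mb, 416 at 1 to 2 Mb and 473 at 2 Mb or more. The slope was thus broken at the longest class, whose 131 peaks had an interval of 390 to 622 for the median. Width took the same course, with medians of 871 bp under 5 kb, 783 bp at 500 kb to 1 Mb, 726 bp at 1 to 2 Mb and 789 bp at 2 Mb or more. A peak between distances of different length counts in both classes.

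**Figure D5:**
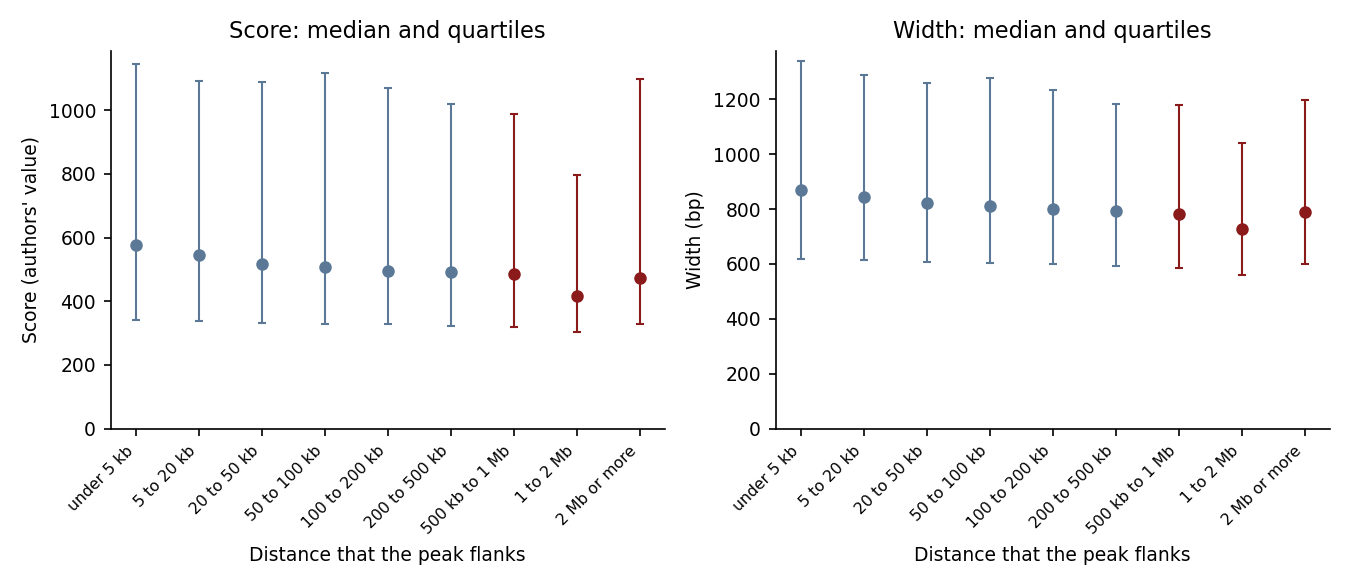
Score (left, the authors' value per peak) and width in bp (right) of the peaks at the ends of distances of each length class, as median (point) and quartiles (bars), with stretches of 500 kb or more in dark red. Median scores lie between 416 and 576 and the quartiles of all classes overlap.

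The 116 peaks with a stretch on each side had lower medians again, though with overlapping intervals. Their median score was 420 (interval 337 to 576), against 463 (434 to 494) for the 1144 that had a stretch on one side only, and their median width was 717 bp against 778 bp. The intervals overlap. A score below 337 was found for 47 of the 116 (40.5%). The lowest was 258.3, the minimum of the whole list, on chromosome 1, 146957179 to 146957730, with 21 reads over 552 bp. The next lowest had scores of 261 on chromosome 14, 93225899 to 93226432, and 274 on chromosomes 12, 49312357 to 49312909, and 10, 113556244 to 113556794, followed by 275 on chromosome 10, 113030320 to 113030867. The last 2 are neighbours, 525 kb apart. These 5 peaks rested on 21 or 22 reads each, close to the smallest number found in the list.

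Some lone peaks were strong. The highest score was that of chromosome 17, 39979808 to 39985908, with 3100 and a width of 6101 bp, between stretches of 1816 and 671 kb. This score is at the top of the scale, where reads cannot be recovered, and repeated sequence at this peak was not measured. It was followed by chromosome 7, 66483315 to 66485565, with a score of 2969 and 200 reads, and chromosome 2, 67402943 to 67405158, with a score of 2311 and 164 reads. Chromosome 11, 47801304 to 47803388, had a score of 2134 and chromosome 7, 81698596 to 81700984, one of 2116. Their widths were 2251, 2216, 2085 and 2389 bp. Reads could be recovered for 4 of these 5 and ran from 152 to 200, against the 21 or 22 of the weakest lone peaks.

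The most isolated peak, by the summed length of its stretches, was chromosome 14, 109312799 to 109313454, with 2.82 Mb free of peaks on one side and 2.76 Mb on the other. It lies inside the longest run and had 30 reads and a score of 383. Chromosome 1, 25886369 to 25888227, next to the second longest stretch, had 124 reads and a score of 1699. The third, chromosome 7, 11080212 to 11081308, had 3.83 Mb on one side and 1.51 Mb on the other, with 59 reads and a score of 769. These 3 were chosen after their values were seen.

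By number of peaks, the sections between stretches showed a similar slope in reads. It in part repeats the lower reads of flanking peaks. Every lone peak is a flanking peak, and so are the first and last peak of each larger section. Lone peaks had a median of 32 reads, peaks in sections of 2 to 5 had 37, and those in sections of 6 to 20 and of 21 to 100 had 40 each. Peaks in sections of more than 100 had 42, the same as the autosomal peaks that flank no stretch. The medians in reads per kb did not follow the number of peaks. They were 47.2 for lone peaks and 48.4 in sections of 2 to 5, highest at 49.9 in sections of 6 to 20, and 49.2 and 49.6 in the larger sections. How deeply the library was sequenced cannot be read from the list. The fewest reads recovered in a peak were 21, so weaker binding inside a stretch could have gone uncalled, and a stretch does not show that Tdg was absent.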

How the data were processed

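Per the labels' protocols, fixed chromatin was sonicated before immunoprecipitation. Per the submitters' processing notes, CASAVA 1.8, Bowtie 0.12.7, MACS 1.4.1 and mm9 were named, with no role or order. Threshold, control library and read filters of the peak calling are not given in these sources. The authors deposited 1 row per peak with start, end and a score. Positions are printed counting from 1.

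Stretches were measured from the end of a peak to the start of the next; peaks do not overlap. Shares use the length from first to last peak of a chromosome. Reads per peak were recovered for 70875 of 70884 peaks with a score below 3050, as the whole number whose Poisson probability under one rate, fitted as 1.13 reads per kb, gives the score within 0.01. If the caller's probability included the number itself, they are 1 higher. Both steps were tested on simulated data.

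The members, classes and lists were chosen with earlier results of these data known, and the stretches are defined by peak spacing, so no test was run. Named regions were the 10 longest stretches, the longest of each autosome, the 3 nearest the limit on each side, the 5 longest runs and, among peaks between stretches, the 5 highest and 5 lowest scores. The 3 most isolated peaks and the longest sections free of stretches were added after their values were seen. Python 3.11.15, numpy 2.4.6, pandas 2.3.3, scipy 1.17.1 and matplotlib 3.10.9 were used.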

Additional observations from a re-analysis of the deposited data

How the results depend on the processing

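The number of stretches follows the minimum length, with 1590 at 250 kb and 262 at 1 Mb, and the total length was 450 Mb at 1 Mb. It stayed within 1.5 times 688 with a score of at least 500 (844), a score of at least 1000 (969), midpoints (691), without chromosome 1 (626) and without lone peaks (572), where the total length was 742 Mb. The total length reached 1017 Mb at a score of at least 500 and 1276 Mb at 1000, that setting being added after seeing the data. Chromosome 14 kept the highest share in these settings (29.4% to 63.1%). Chromosome 11 kept the lowest (15.2% to 33.8%) in all but the minimum of 1 Mb, where it had 7.13% and chromosome 9 had 6.49%. Stretches followed directly by another were 8.78% at 1 Mb, against 0.363% of all distances, and 19.8% at a score of at least 500, against 2.15%. Flanks of stretches of at least 1 Mb had a median score of 419, 737 bp and 33 reads, against 556, 853 bp and 42 reads in other peaks. With 3 peaks on each side the values were 495, 794 bp and 38 reads, against 558, 855 bp and 42 reads. Runs numbered 117 and 132 when joined across 50 and 200 kb. Gene content was not run because it needs mm9 annotation. No paired analysis was possible because 1 library gave all values. Depth is unknown and limits every stretch, since weak peaks may go uncalled.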
